A study of Homo sapiens with 22 samples.

Results

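Proteasome subunit genes were examined in 11 B-cell lymphoma cell lines, each measured once after treatment with aza and TSA (aza/tsa) and once untreated. The genes were chosen by symbol: every array element with exactly 1 gene symbol beginning with PSMA, PSMB, PSMC, PSMD, PSME or PSMG was taken, and the immunoproteasome genes PSMB8, PSMB9 and PSMB10 were left out. This gave 41 elements for 40 genes, of 32878 elements and 15461 named genes on the array. PSME2 had 2 elements and its brighter one was used. By their known products, 38 of the 40 genes belong to the proteasome, its activators or its assembly chaperones. PSMC3IP, which encodes a meiotic recombination factor, and PSME3IP1, which encodes a partner protein of the activator PSME3, carry the symbol without being subunits, and they are counted with the 40 but described apart.

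The aza/tsa cultures grew for 72 h with 1 µM 5-aza-2′-deoxycytidine (aza), an inhibitor of DNA methyltransferases, added every 24 h, and with 0.5 µM trichostatin A (TSA), an inhibitor of histone deacetylases, over the last 12 h. The untreated cultures were of the same lines, and no culture received one drug alone. The lines are Raji, BL41 and Ramos (Burkitt lymphoma), HLY-1, OciLy3 and OciLy10 (DLBCL ABC), SUDHL4 and SUDHL6 (DLBCL GC) and K422, SC-1 and ROS50 (follicular lymphoma). Each line is an established culture and not a tissue sample. The aza/tsa and untreated arrays of a line form a pair, the lines are the replicates, and a line has 1 array per condition, so the error between parallel cultures of a line was not measured.

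The proteasome is the protease that degrades ubiquitin-tagged proteins in the cytosol and nucleus. Its 20S core is a barrel of rings: the alpha rings close the gate, and the beta rings hold the active sites in PSMB5 (chymotrypsin-like), PSMB6 (caspase-like) and PSMB7 (trypsin-like). The 19S particle binds tagged substrates, removes ubiquitin and unfolds them with a ring of ATPases, and lymphoid cells replace the active subunits with PSMB8, PSMB9 and PSMB10 to form the immunoproteasome.

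All values are log2 signals of the deposited table, in which every array has a median of 10.18, and differences are aza/tsa minus untreated within a line. A level of one proteasome gene was not set against a level of another, since each probe has its own brightness. The marker levels below have this limit, and a low one can reflect a dim probe. Before normalization, the median raw signal of an array was 633 to 2154 in aza/tsa cultures and 717 to 1582 in untreated cultures, and its 75th percentile was 2901 to 15058 in aza/tsa cultures and 3907 to 14311 in untreated cultures. Of the B-cell markers, CD79A, CD79B, MS4A1 and CD22 were bright on average in untreated cells (14.93 to 16.46) and PAX5 was below the array median on average (9.05), while the 6 T-cell and 5 myeloid markers averaged between 8.59 and 10.26 in untreated cells. Single lines stood apart from these means. K422 had high CD3D (14.80 in aza/tsa, 16.38 untreated) and CD3G (12.79 in aza/tsa, 15.70 untreated). Its CD3E, CD2, CD5 and CD8A were below the array median in both conditions. Ramos had high MPO (13.81 in aza/tsa, 14.26 untreated) and, in aza/tsa only, LYZ (14.12) and CSF1R (12.44). The CD14 (10.73 in aza/tsa, 10.41 untreated) and ITGAM (10.19 in aza/tsa, 9.84 untreated) of Ramos were near the array median. In aza/tsa, CD3E was 12.80 in BL41 and CD3D was 12.01 in Raji. HLY-1 was low in MS4A1 (9.92 in aza/tsa, 9.42 untreated) and CD22 (9.08 in aza/tsa, 10.13 untreated). It also had the lowest CD79A (10.84 in aza/tsa, 11.95 untreated) and CD79B (9.77 in aza/tsa, 13.06 untreated) of all lines. Of the proteasome calls given below, 14 lower and 2 higher were made without K422, 11 lower and 2 higher without Ramos, and 12 lower and 2 higher without HLY-1. By limma, 4 of the 5 B-cell markers were lower in aza/tsa cultures (median −1.77) and 0 of the 11 T-cell and myeloid markers passed. Of all elements 12.4% were lower and 11.2% were higher. Of those with a mean log2 signal of at least 14, 23.1% were lower and 20.2% were higher. The T-cell and myeloid markers were mostly dim, so the 2 counts are not alike. The part of the marker changes in the results below was not tested. In bulk RNA, fewer cells that express a gene and less RNA per cell cannot be told apart.

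More proteasome genes were lower than higher in aza/tsa cultures, most did not pass the test, and the changes were small. By limma with the line as a block (Benjamini-Hochberg at 0.05 over all 32878 elements), 14 of the 40 genes were lower (35.0%), 3 were higher and 23 did not pass. Over all elements 12.4% were lower and 11.2% were higher. The 40 genes are bright, and 37 of them were above the array median on all 22 arrays. Among the 4974 elements with a mean log2 signal of at least 14, 23.1% were lower and 20.2% were higher, and of the 32 proteasome genes in that range 12 were lower (37.5%) and 2 were higher (6.25%). The median difference of the 40 genes was −0.15, beside −0.03 over all elements and 0.03 over the elements of at least 14. In 38 of the 40 genes the mean difference was under 1 log2 unit, so that most of these changes are less than 2-fold.

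These directions depend in part on how the arrays are scaled. The table was quantile normalized. With median scaling of the raw signals, which moved the median of all elements by −0.12, 23 genes were lower and 0 were higher, and with no normalization 20 were lower and 0 were higher; under both, 39.7% and 31.6% of the elements of at least 14 were lower and 9.29% and 9.59% were higher. All 14 lower calls held under both scalings. The 3 rises did not: PSMB4 was −0.05 and 0.04, PSMD6 was −0.02 and 0.07 and PSMC3IP was 0.25 and 0.34 with median scaling and with no normalization. The median of the 40 genes minus that of all elements was −0.12 in the table and −0.43 under either other scaling. Within the elements of at least 14, the contrast moved less. There the median of the proteasome genes minus that of the elements was −0.30 in the table and −0.35 under either other scaling.

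**Figure D1:**
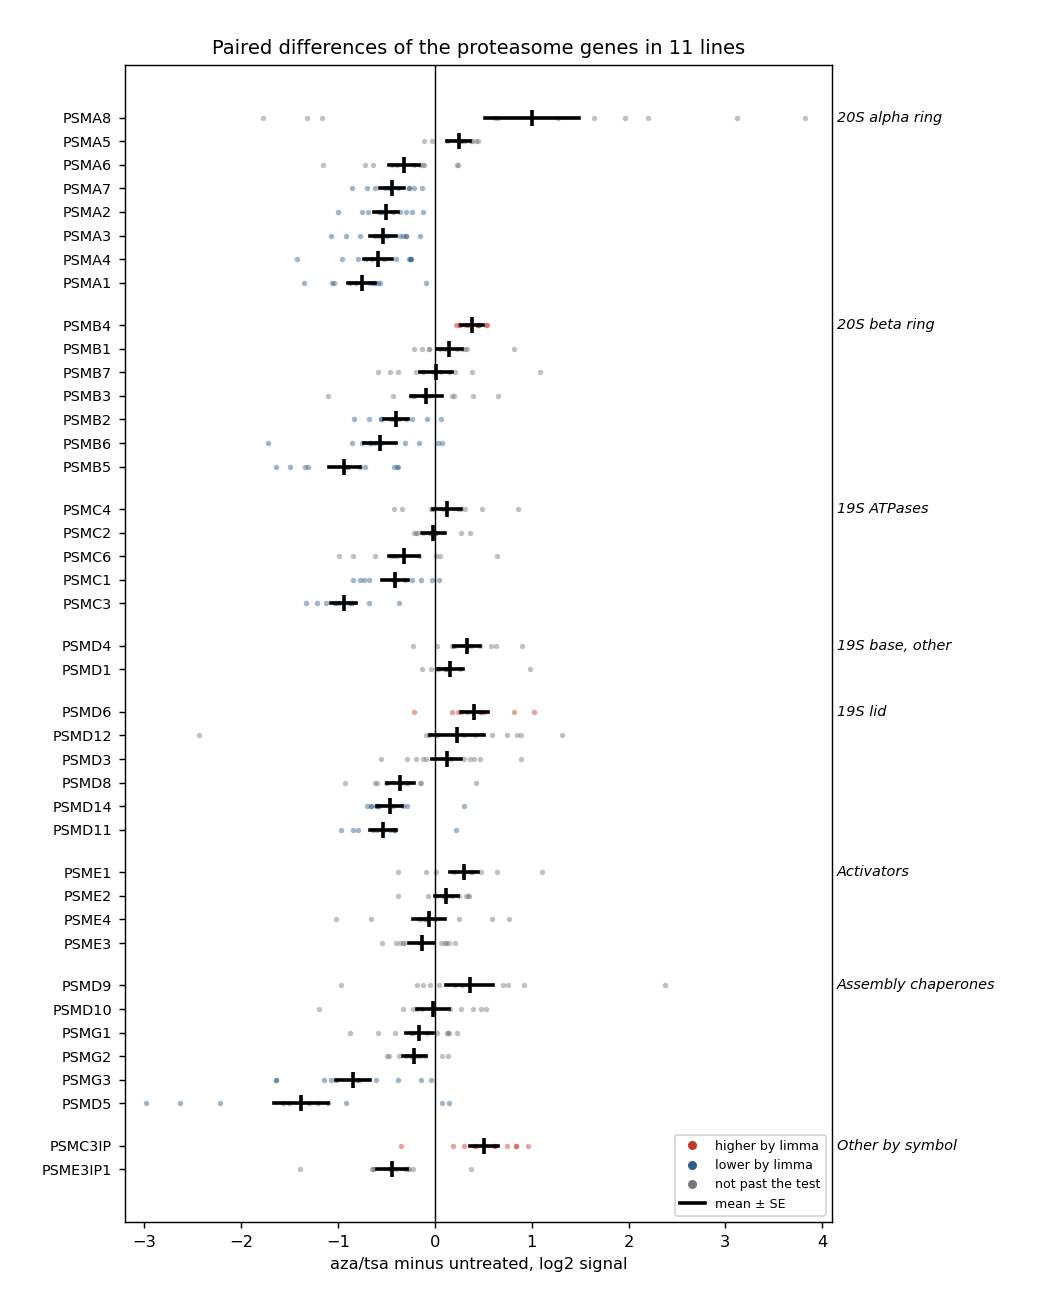
Paired aza/tsa minus untreated differences (x axis, log2 signal) of the 40 genes (y axis, grouped by role), with 1 point per line and the mean ± SE of the limma fit in black. Red and blue mark genes called higher and lower in the deposited table; 14 are lower and 3 higher, and the 3 rises are lost with median scaling, where PSMB4 and PSMD6 lie just below 0.

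**Figure D2:**
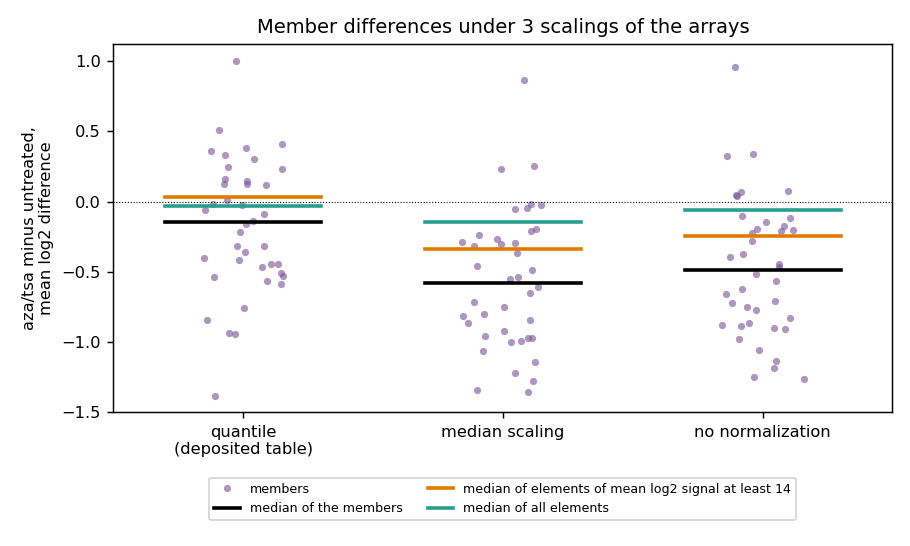
Mean aza/tsa minus untreated differences (y axis, log2) of the 40 genes under 3 scalings of the arrays (x axis), 1 point per gene, with the median of the 40 genes in black, of elements with a mean log2 signal of at least 14 in orange and of all elements in green. The median of the 40 genes is −0.15 in the table, −0.58 with median scaling and −0.49 with no normalization, and lies below both other medians each time.

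The alpha ring, which forms the outer rings of the core, had the highest share of lower genes among the groups with more than 2 members. Of its 8 genes, 5 were lower (PSMA1, PSMA2, PSMA3, PSMA4 and PSMA7), 0 were higher and 3 did not pass, with a median difference of −0.47. PSMA1 showed 15.78, 16.60 and 16.91 as lowest, median and highest level in aza/tsa cultures, against 16.82, 17.33 and 17.95 in untreated cultures. The levels overlapped between the groups only at the edge: each aza/tsa array but those of Raji and ROS50 was below the lowest untreated one. PSMA1 was lower in 11 of 11 lines, from −1.35 in OciLy3 to −0.09 in ROS50, with a mean of −0.76 (SE 0.14, n = 11, limma adjusted p = 0.000996). The other lower alpha genes fell by 0.44 (PSMA7, limma adjusted p = 0.0158) to 0.59 (PSMA4, limma adjusted p = 0.00809), each in 11 of 11 lines. Lower in 11 of 11 lines were 6.15% of all elements and 8 of the 40 genes (these 5, PSMB5, PSMC3 and PSMG3). The 40 genes are mostly bright, and this share was not counted among bright elements alone. PSMA5 had a mean difference of 0.25 (limma adjusted p = 0.157) and PSMA6 of −0.32 (limma adjusted p = 0.161); PSMA5 turned to −0.21 with median scaling and −0.12 with no normalization.

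PSMA8, which encodes the alpha subunit of the testis proteasome that takes the place of PSMA7, varied most between lines. Its levels spanned 9.24, 11.25 and 15.33 (lowest, median, highest) in aza/tsa cultures, against 7.62, 9.70 and 16.65 in untreated cultures, and its SD over untreated lines was 2.97 log2 units, where the median SD of the 40 genes was 0.51. In untreated cells SUDHL4 (16.65), BL41 (14.18) and Ramos (13.83) were high, SUDHL6 was at 11.09, and the other 7 lines were between 7.62 and 9.98, below the array median of 10.18. The 3 lines with high untreated levels were the 3 in which it was lower after aza/tsa, at 15.33 in aza/tsa against 16.65 in untreated SUDHL4, 12.41 against 14.18 in BL41 and 12.66 against 13.83 in Ramos. It was higher in the other 8 lines, most in SUDHL6 (14.91 in aza/tsa, 11.09 untreated) and K422 (11.93 in aza/tsa, 8.80 untreated). The mean difference was 1.003 (SE 0.48, n = 11), and it did not pass (limma adjusted p = 0.164). A difference between the same 2 arrays and the untreated level share that untreated value, so their relation was not tested. PSMA8 was the 1 proteasome gene at least 2-fold higher in at least 6 lines, a rule that 6.52% of all elements met, and it met it in exactly 6; with values floored at the 25th percentile of each array it no longer did.

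**Figure D3:**
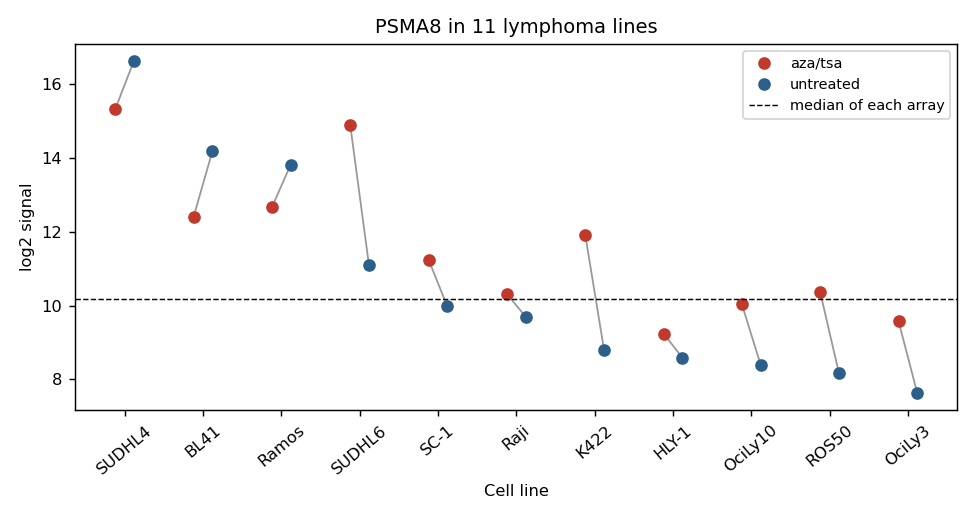
PSMA8 log2 signal (y axis) in aza/tsa (red) and untreated (blue) cultures of each line (x axis, ordered by the untreated level), with the arrays of a line joined and the array median of 10.18 dashed. SUDHL4, BL41 and Ramos stand high when untreated and are lower after aza/tsa, and the other 8 lines are higher.

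The beta ring had genes in both directions: PSMB2, PSMB5 and PSMB6 were lower, PSMB4 was higher, and PSMB1, PSMB3 and PSMB7 did not pass (7 genes, median −0.09). PSMB5, the chymotrypsin-like subunit and the main target of bortezomib, showed 14.18, 14.79 and 15.13 (lowest, median, highest) in aza/tsa cultures, against 15.18, 15.57 and 16.24 in untreated cultures. The 2 groups did not overlap. It was lower in 11 of 11 lines, from −1.64 in K422 to −0.38 in Raji, and the mean difference was −0.94 (SE 0.16, n = 11, limma adjusted p = 0.000603), which is 1.91-fold lower. PSMB6, the caspase-like subunit, showed 13.67, 15.53 and 16.77 in aza/tsa cultures, against 15.26, 15.71 and 17.62 in untreated cultures. Its groups overlapped widely, and it was lower in 9 of 11 lines by a mean of −0.56 (SE 0.17, limma adjusted p = 0.0247), with ROS50 at −1.73 and Raji and SUDHL6 at 0.07 and 0.04. Without Ramos its adjusted p by limma was 0.0504. PSMB7, the trypsin-like subunit, showed 16.27, 16.93 and 17.35 in aza/tsa cultures, against 15.92, 16.86 and 17.54 in untreated cultures, and its mean difference was 0.01 (SE 0.16, limma adjusted p = 0.97), positive in 5 lines and negative in 6. It was −0.46 with median scaling and −0.37 with no normalization, and neither value passed. PSMB1 and PSMB3, structural subunits, had mean differences of 0.15 and −0.09 (limma adjusted p = 0.47 and 0.755), and PSMB1 turned to −0.31 with median scaling and −0.22 with no normalization.

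PSMB4, a structural beta subunit without an active site of its own, had the narrowest range of paired differences of the 40 genes. It showed 18.10, 18.44 and 18.96 (lowest, median, highest) in aza/tsa cultures, against 17.78, 18.13 and 18.45 in untreated cultures. The groups overlapped, but within each line the aza/tsa culture was higher, by 0.21 (OciLy10) to 0.54 (BL41). Its mean difference was 0.39 (SE 0.11, n = 11, limma adjusted p = 0.0211). It was the 1 proteasome gene higher in 11 of 11 lines, which 5.46% of all elements were (bright elements were not counted apart). With median scaling it was −0.05 and did not pass. PSMB2, another structural beta subunit, had a mean difference of −0.40 (SE 0.13, limma adjusted p = 0.0325) and was lower in 10 of 11 lines; the call was lost when OciLy3, Ramos, SC-1, Raji, SUDHL4, HLY-1 or ROS50 was left out.

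**Figure D4:**
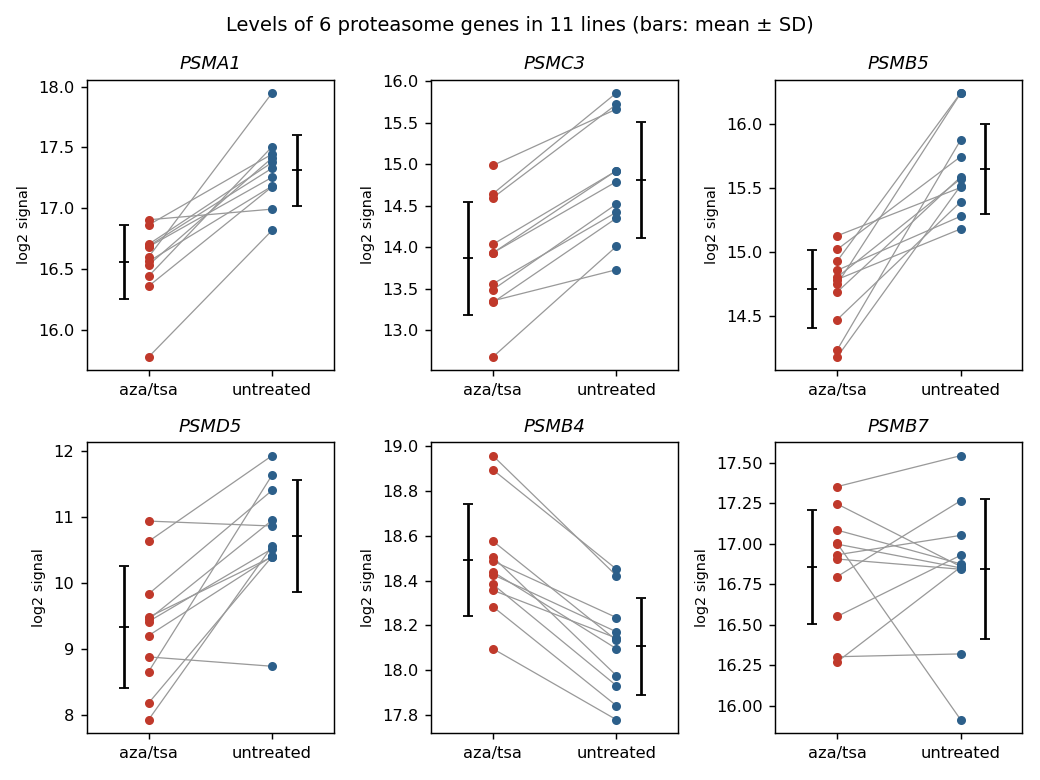
Log2 signal (y axes, which differ and do not start at 0) of PSMA1, PSMC3, PSMB5, PSMD5, PSMB4 and PSMB7 in aza/tsa (left) and untreated (right) cultures, 1 point per line, the cultures of a line joined, with the mean ± SD beside them. PSMA1, PSMC3 and PSMB5 are lower in all 11 lines, PSMB4 is higher in all 11 (with median scaling its mean is −0.05), and the lines of PSMB7 cross.

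The active subunits were also compared with each other within arrays, as log2 ratios. A shift of a whole array cancels in such a ratio, but quantile normalization does not shift all genes alike, so the ratios were also taken from the median-scaled signals. The change of the log2 ratio of PSMB5 to PSMB7 was −0.95 ± 0.50 (SD, n = 11), and the ratio was lower in 11 of 11 lines, with changes from −1.70 to −0.26. An exact two-sided sign-flip permutation test over the 11 lines gave p = 0.000977, the smallest it can give, and 0.00293 after Benjamini-Hochberg adjustment over the 6 pairs compared. The ratio of PSMB6 to PSMB7 was lower in 9 of 11 lines, with a change of −0.58 ± 0.46 (SD, n = 11, exact permutation test, adjusted p = 0.0117). The ratio of PSMB5 to PSMB6 changed by −0.37 ± 0.54 and did not pass (SD, n = 11, exact permutation test, adjusted p = 0.0762), while without ROS50 the adjusted p of the same exact test was 0.00391. These pairs were chosen after the differences of the single genes had been seen. The ratios are made of those same values, so their p-values describe the pairs and add no separate support. With median scaling the changes were −0.88 (PSMB5 to PSMB7), −0.51 (PSMB6 to PSMB7) and −0.37 (PSMB5 to PSMB6), each on the same side of the threshold.

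Of the 3 immunoproteasome subunits, PSMB8 and PSMB10 were lower (66.7%, beside 12.4% of all elements). Both were at least 2-fold lower in at least 6 lines, a rule that 5.80% of all elements met. PSMB8 showed 10.02, 14.26 and 15.79 (lowest, median, highest) in aza/tsa cultures, against 9.89, 15.88 and 17.10 in untreated cultures. It was lower in 10 of 11 lines by a mean of −1.34 (SE 0.24, n = 11, limma adjusted p = 0.00084), and OciLy10, the line with by far the lowest level in either condition, was at 0.13. PSMB10 showed 10.71, 12.11 and 13.45 in aza/tsa cultures, against 12.50, 13.70 and 14.87 in untreated cultures, and was lower in 11 of 11 lines by a mean of −1.54 (SE 0.20, limma adjusted p = 6.14e-05). PSMB9 had a mean difference of −0.31 and did not pass (SE 0.26, limma adjusted p = 0.455). Within arrays, PSMB10 was compared with PSMB7, the subunit it replaces, and the log2 ratio changed by −1.56 ± 0.62 and was lower in 11 of 11 lines (SD, n = 11, exact permutation test, adjusted p = 0.00293). The ratio of PSMB8 to PSMB5 changed by −0.41 ± 0.89 and did not pass (SD, n = 11, exact permutation test, adjusted p = 0.185); without OciLy10 the adjusted p of the same exact test was 0.0293. The ratio of PSMB9 to PSMB6 changed by 0.25 ± 0.70 and did not pass (SD, n = 11, exact permutation test, adjusted p = 0.26). These pairs too were chosen after the single genes had been seen, so their p-values are descriptive.

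**Figure D5:**
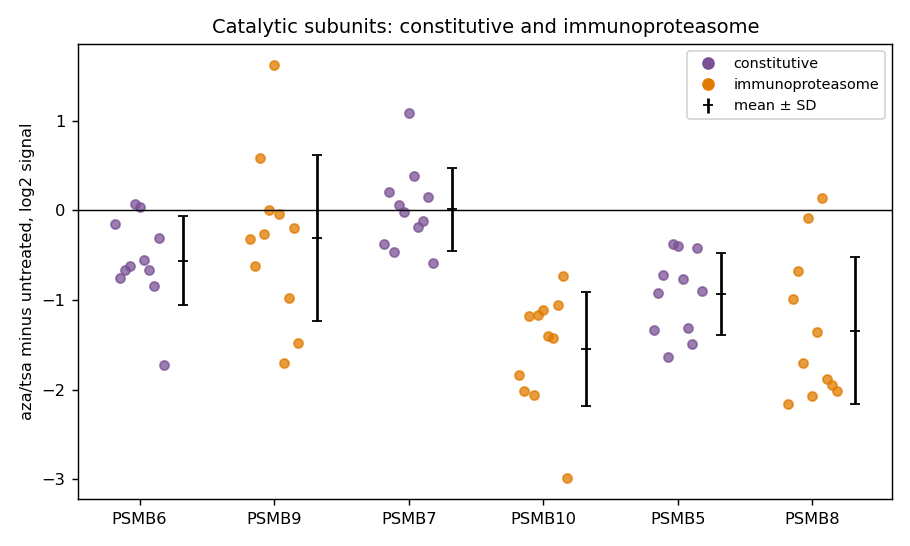
Paired aza/tsa minus untreated differences (y axis, log2 signal) of the constitutive active subunits (purple) and their immunoproteasome counterparts (orange), 1 point per line, with the mean ± SD of the 11 lines. PSMB5, PSMB8 and PSMB10 lie mostly below 0 (means −0.94, −1.34 and −1.54), and PSMB7 is centred at 0.01 in the table and at −0.46 with median scaling.

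Of the 5 ATPases of the 19S base measured here, which unfold substrates and feed them into the core, PSMC1 and PSMC3 were lower and PSMC2, PSMC4 and PSMC6 did not pass (median −0.32). PSMC3 showed 12.68, 13.93 and 14.98 (lowest, median, highest) in aza/tsa cultures, against 13.73, 14.79 and 15.86 in untreated cultures. The groups overlapped, but within each line the aza/tsa culture was lower, with differences from −1.33 in OciLy3 to −0.37 in Raji. Its mean difference of −0.94 had the lowest adjusted p of the 40 genes (SE 0.13, n = 11, 1.92-fold lower, limma adjusted p = 9.6e-05). PSMC1 was lower in 10 of 11 lines, by a mean of −0.41 (SE 0.13, limma adjusted p = 0.0379), a call lost without OciLy3, Ramos, SC-1, SUDHL6, SUDHL4, OciLy10 or HLY-1. The remaining ATPases had mean differences of −0.32 (PSMC6), −0.01 (PSMC2) and 0.13 (PSMC4), with adjusted p-values by limma of 0.181, 0.95 and 0.582, and PSMC4 turned to −0.30 with median scaling and −0.21 with no normalization.

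The 2 non-ATPase genes of the 19S base did not pass. PSMD4, a ubiquitin receptor, showed 14.82, 15.15 and 16.38 (lowest, median, highest) in aza/tsa cultures, against 14.19, 14.96 and 16.01 in untreated cultures. It was higher in 10 of 11 lines, but the mean difference of 0.33 (SE 0.13) had an adjusted p of 0.0924 by limma, and with median scaling it was −0.05. PSMD1, the large scaffold subunit, had a mean difference of 0.16 (limma adjusted p = 0.44), which turned to −0.29 with median scaling and −0.20 with no normalization.

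In the 19S lid, 2 of 6 genes were lower (PSMD11 and PSMD14), PSMD6 was higher and 3 did not pass (median −0.12). PSMD14, the deubiquitinase that cuts ubiquitin off the substrate, showed 16.14, 17.07 and 17.79 (lowest, median, highest) in aza/tsa cultures, against 16.73, 17.50 and 18.39 in untreated cultures. It was lower in every line but ROS50, which was at 0.30, by a mean of −0.47 (SE 0.13, n = 11, limma adjusted p = 0.0178). The call was lost without OciLy3 and OciLy10, and also without HLY-1, OciLy10 and SUDHL4. PSMD11, a scaffold subunit of the lid, showed 16.18, 16.42 and 17.20 in aza/tsa cultures, against 16.20, 17.23 and 17.62 in untreated cultures, and was also lower in 10 of 11 lines with ROS50 as the exception (0.22), by a mean of −0.53 (SE 0.13, limma adjusted p = 0.00971). PSMD6, another lid scaffold subunit, showed 16.10, 16.33 and 16.90 in aza/tsa cultures, against 15.28, 15.98 and 16.75 in untreated cultures. It was higher in 10 of 11 lines, with OciLy3 at −0.22, by a mean of 0.41 (SE 0.14, limma adjusted p = 0.0436). Leaving out any line other than OciLy3 ended this call, and the direction turned with median scaling (−0.02). PSMD12 had a mean difference of 0.23 (SE 0.28, limma adjusted p = 0.613) with one line far below the rest, BL41 at 10.57 in aza/tsa against 13.00 untreated (−2.43); with median scaling its mean was −0.02. PSMD8 and PSMD3, 2 more subunits of the lid, had mean differences of −0.36 and 0.12 (limma adjusted p = 0.0841 and 0.622). PSMD8 passed without BL41 (−0.43, limma adjusted p = 0.0308), and PSMD3 turned to −0.23 with median scaling and −0.14 with no normalization.

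The 4 activator genes, which open the core in place of the 19S particle, did not pass (median 0.03). PSME1 and PSME2, the 2 subunits of the interferon-inducible activator, had mean differences of 0.30 and 0.12 (limma adjusted p = 0.169 and 0.545), which turned negative with median scaling (−0.19 and −0.26) and with no normalization (−0.10 and −0.17). The second element of PSME2 gave 0.15. PSME3, the nuclear activator, had a mean difference of −0.14 (limma adjusted p = 0.508). PSME4, which encodes the activator PA200, showed 12.79, 13.66 and 14.70 (lowest, median, highest) in aza/tsa cultures, against 12.89, 13.81 and 14.45 in untreated cultures. Its lines ranged from −1.02 (SUDHL6) to 0.76 (HLY-1) around a mean of −0.06 (SE 0.17, limma adjusted p = 0.841).

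Of the 6 assembly chaperones, which help build the core and the base and are not part of the finished particle, PSMD5 and PSMG3 were lower and 4 did not pass (median −0.19). PSMD5, a chaperone of the base, had the largest mean difference of the 40 genes. It showed 7.93, 9.42 and 10.94 (lowest, median, highest) in aza/tsa cultures, against 8.74, 10.56 and 11.93 in untreated cultures. It was above the array median in 2 of 11 aza/tsa cultures and in 10 of 11 untreated cultures, so this change lies in dim signals and its size is uncertain. The lines ranged from −2.98 (HLY-1) and −2.63 (BL41) to 0.07 (ROS50) and 0.14 (SC-1), and the mean was −1.38 (SE 0.28, n = 11, limma adjusted p = 0.002). With values floored at the 25th percentile of each array the mean was −1.25 (limma adjusted p = 0.00159). It was the 1 proteasome gene at least 2-fold lower in at least 6 lines (8 lines), a rule that 5.80% of all elements met.

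PSMG3, a chaperone of the alpha ring, showed 12.16, 13.68 and 15.13 (lowest, median, highest) in aza/tsa cultures, against 13.30, 14.29 and 15.17 in untreated cultures. It was lower in 11 of 11 lines, from −1.64 in HLY-1 and ROS50 to −0.04 in BL41, by a mean of −0.84 (SE 0.17, limma adjusted p = 0.0027). PSMG1 and PSMG2, which pair as another chaperone of the alpha ring, had mean differences of −0.16 and −0.21 and did not pass (limma adjusted p = 0.469 and 0.234). PSMD10, a chaperone of the base, had a mean difference of −0.02 (limma adjusted p = 0.944). PSMD9, another chaperone of the base, had a mean difference of 0.36 that did not pass (SE 0.25, limma adjusted p = 0.341), with OciLy3 at 11.37 in aza/tsa against 8.99 untreated (2.38).

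Of the 2 genes that carry the symbol only, PSMC3IP was higher. It showed 12.01, 13.59 and 14.09 (lowest, median, highest) in aza/tsa cultures, against 11.61, 12.96 and 13.66 in untreated cultures. It was higher in 10 of 11 lines, Ramos being at −0.35, by a mean of 0.51 (SE 0.14, n = 11, limma adjusted p = 0.0195), and did not pass under the other scalings (0.25 and 0.34). PSME3IP1 had a mean difference of −0.44 just outside the threshold (SE 0.15, limma adjusted p = 0.0522), which passed without BL41 (−0.52, limma adjusted p = 0.0214). Without these genes, 14 of 38 were lower and 2 were higher, with the same median of −0.15.

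Line by line, the median difference of the 40 genes was −0.33 in Ramos, between −0.26 and −0.07 in 9 lines and 0.05 in ROS50. In Ramos, OciLy3 and OciLy10 28 of 40 genes were negative. In ROS50 only 18 were, although PSMB6 (−1.73) and PSMG3 (−1.64) fell far there. The medians over all elements were below 0 in every line, ROS50 included, and lay between −0.09 and −0.004, a narrower range. Over the elements of at least 14 the medians lay between −0.04 and 0.07. The share of all elements that were negative in a line was not counted beside the counts of genes. Without HLY-1, OciLy10 and SUDHL4, whose raw 75th percentiles were among the lowest (2901 to 4547), 7 genes were lower and 0 were higher by limma. The 7 were among the 14, and the lower calls lost were those of PSMA3, PSMA7, PSMB2, PSMB6, PSMC1, PSMD11 and PSMD14. Without OciLy3 and OciLy10, which were grown in a different medium, 9 were lower and 3 were higher. The calls of PSMA2, PSMB2, PSMB6, PSMC1 and PSMD14 were then lost. Whether the medium plays a part was not tested.

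Promoters of some of these genes are shown because members that move together can share sequence. RefSeq promoter windows of GRCh38.p14, from 250 bases before to 50 bases after a start, were given for 34 of the 40 genes (41 windows of 300 bases); PSMA7, PSMB1, PSMB6, PSMB7, PSMD4 and PSMG3 had no entry. The windows were searched on both strands for 3 patterns: the antioxidant response element TGACNNNGC, the core of the site that NFE2L1 and NFE2L2 bind, the CCAAT box CCAAT, which NF-Y binds, and the heat shock element GAANNTTC. Those below are the genes with the largest fall of the ATPases, the active subunits and the chaperones (PSMC3, PSMB5 and PSMD5), the 2 subunits that were higher in the table (PSMB4 and PSMD6) and PSMD3, a lid gene that did not pass. Matches are in capitals, written as they read on the printed strand.
PSMC3 (lower), chr11:47426390-47426689, minus strand: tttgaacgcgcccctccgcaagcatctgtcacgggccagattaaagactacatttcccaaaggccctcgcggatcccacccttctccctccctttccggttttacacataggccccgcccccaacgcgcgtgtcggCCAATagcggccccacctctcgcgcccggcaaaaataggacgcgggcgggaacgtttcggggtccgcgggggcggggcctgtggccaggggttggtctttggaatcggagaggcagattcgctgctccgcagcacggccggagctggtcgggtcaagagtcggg
PSMB5 (lower), chr14:23035171-23035470, minus strand: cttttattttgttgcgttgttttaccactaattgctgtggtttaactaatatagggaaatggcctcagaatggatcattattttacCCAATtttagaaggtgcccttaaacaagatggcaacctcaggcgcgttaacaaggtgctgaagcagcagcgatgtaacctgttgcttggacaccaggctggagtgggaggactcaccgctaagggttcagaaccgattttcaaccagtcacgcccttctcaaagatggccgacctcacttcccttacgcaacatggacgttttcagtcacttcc
PSMD5 (lower), chr9:120842873-120843172, minus strand: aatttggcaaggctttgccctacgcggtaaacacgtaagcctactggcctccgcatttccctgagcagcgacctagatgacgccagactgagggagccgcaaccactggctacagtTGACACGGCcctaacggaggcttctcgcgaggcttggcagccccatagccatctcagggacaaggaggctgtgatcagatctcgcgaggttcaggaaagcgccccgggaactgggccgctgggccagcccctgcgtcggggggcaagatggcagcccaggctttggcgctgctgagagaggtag
PSMB4 (higher), chr1:151399323-151399622, plus strand: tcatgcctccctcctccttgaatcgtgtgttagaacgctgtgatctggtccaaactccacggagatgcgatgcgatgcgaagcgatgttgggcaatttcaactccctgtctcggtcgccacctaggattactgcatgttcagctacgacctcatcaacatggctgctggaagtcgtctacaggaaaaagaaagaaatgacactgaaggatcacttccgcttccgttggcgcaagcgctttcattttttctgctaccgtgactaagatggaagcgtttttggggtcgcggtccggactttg
PSMD6 (higher), chr3:64023445-64023744, minus strand: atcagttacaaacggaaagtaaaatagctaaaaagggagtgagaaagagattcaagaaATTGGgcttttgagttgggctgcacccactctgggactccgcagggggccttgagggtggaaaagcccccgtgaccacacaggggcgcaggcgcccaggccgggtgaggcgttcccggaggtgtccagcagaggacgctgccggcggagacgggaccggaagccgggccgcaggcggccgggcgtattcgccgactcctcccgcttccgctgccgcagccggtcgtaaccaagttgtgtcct
PSMD3 (not past the test), chr17:39980557-39980856, plus strand: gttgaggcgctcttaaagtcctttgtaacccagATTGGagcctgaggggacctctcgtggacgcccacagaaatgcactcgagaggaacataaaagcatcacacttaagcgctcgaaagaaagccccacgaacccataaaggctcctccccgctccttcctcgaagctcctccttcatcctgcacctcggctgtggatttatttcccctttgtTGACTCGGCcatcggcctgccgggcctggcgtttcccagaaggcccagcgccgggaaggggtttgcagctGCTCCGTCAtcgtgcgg

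The printed PSMC3, PSMB5 and PSMD6 windows each hold 1 CCAAT box (a second PSMB5 window, from another start, holds 0 and is not printed), which in PSMD6 reads on the opposite strand, the PSMD5 window holds 1 antioxidant response element, the PSMD3 window holds 2 antioxidant response elements and 1 CCAAT box, and the PSMB4 window holds none of the 3 patterns. The antioxidant response element was in 13 of the 41 windows (31.7%) and in 13.3% of all 35116 promoter windows. By call, it was in 2 of the 14 windows of lower genes (PSMA4 and PSMD5), in 11 of the 23 windows of genes that did not pass, and in 0 of the 4 windows of higher genes. The CCAAT box was in 20 of the 41 windows (48.8%) and in 34.6% of all windows. It was in 7 of 14 windows of lower genes, 10 of 23 windows of genes that did not pass and 3 of 4 windows of higher genes. Of these 3, PSMD6 has 1 and the others are overlapping windows of PSMC3IP. The 14 windows of lower genes include 3 of PSMA4 and 2 of PSMB5. The heat shock element was in 2 windows, both of PSMC3IP (4.88%), and in 6.77% of all windows. The windows of the 40 genes held a median of 22 CpG sites, where all promoter windows held 14, and PSMA8 held 25. Windows of one gene overlap in part, and a match is a run of letters, not a measured site.

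Of 11 measured genes that act with the proteasome under other symbols, 1 was higher and 1 was lower by limma (9.09% each, where 11.2% and 12.4% of all elements were), with differences from −0.48 to 0.57 and a median of −0.04. ADRM1, a ubiquitin receptor of the 19S particle, showed 13.90, 15.59 and 16.73 (lowest, median, highest) in aza/tsa cultures, against 13.36, 14.93 and 16.30 in untreated cultures. It was higher in 10 of 11 lines by a mean of 0.57 (SE 0.14, limma adjusted p = 0.00705), and 0.21 with median scaling and 0.30 with no normalization, neither of which passed. PSMF1, an inhibitor of the core, was lower in 10 of 11 lines by a mean of −0.48 (SE 0.13, limma adjusted p = 0.0176), and without OciLy3 and OciLy10 its adjusted p by limma was 0.0573. POMP, the maturation factor of the core, had a mean difference of 0.38 and did not pass (SE 0.14, limma adjusted p = 0.0632); it was −0.10 with median scaling and −0.01 with no normalization, and without ROS50 it was 0.47 (limma adjusted p = 0.0122).

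Of 12 measured regulators of proteasome genes, 1 was higher and 3 were lower by limma. Over all elements, 11.2% were higher and 12.4% were lower. NFE2L1, the factor that raises proteasome transcription when the protease is inhibited, had a mean difference of −0.56 that did not pass (SE 0.20, limma adjusted p = 0.0558), while it passed with median scaling (−0.73, limma adjusted p = 0.0132), with no normalization (−0.64, limma adjusted p = 0.0495) and without HLY-1 or BL41 (limma adjusted p = 0.0395 and 0.0282). KEAP1, the adaptor that directs NFE2L2 to degradation, showed 11.88, 12.27 and 12.73 (lowest, median, highest) in aza/tsa cultures, against 14.13, 14.45 and 15.15 in untreated cultures. These groups were far apart, and KEAP1 was lower in 11 of 11 lines by a mean of −2.16 (SE 0.15, limma adjusted p = 1.13e-06). NFE2L2 fell by 1.29 (limma adjusted p = 0.00057) and NFYC, a subunit of NF-Y, by 1.03 (limma adjusted p = 9.95e-05). STAT3, a transcription factor downstream of cytokine receptors, was higher in 10 of 11 lines by a mean of 2.10 (SE 0.26, limma adjusted p = 5.06e-05).

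Upstream of the proteasome, the factors that supply and carry ubiquitin moved in both directions. Of the 3 ubiquitin precursor and E1 genes measured, UBB, a polyubiquitin precursor, was higher in 11 of 11 lines by a mean of 0.90 (SE 0.17, limma adjusted p = 0.00121), a call lost with median scaling (0.49) and with no normalization (0.58), and UBA1 and UBA6 did not pass. Of 13 shuttle and segregase genes, 4 were higher and 2 were lower (30.8% and 15.4%, beside 11.2% and 12.4% of all elements). SQSTM1, which carries tagged proteins to autophagy, was higher in 11 of 11 lines by a mean of 1.85 (SE 0.23, limma adjusted p = 4.62e-05). UFD1, NPLOC4 and UBXN1, cofactors of the segregase VCP, were higher by 0.94, 1.03 and 1.02 (limma adjusted p = 6e-05, 0.000126 and 0.000576), while VCP itself was at −0.06 (limma adjusted p = 0.859). RAD23B, which carries tagged proteins to the proteasome, was lower in 11 of 11 lines by a mean of −1.74 (SE 0.16, limma adjusted p = 5.69e-06).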

How the data were processed

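Total RNA of 11 lines, aza/tsa and untreated, was hybridized to the Applied Biosystems Human Genome Survey Microarray, 22 arrays in all. The authors deposited intensity values of each element on a linear scale, read with the manufacturer's analyzer, and log2 values computed with ABarray and Bioconductor. The deposited log2 values equal log2 of the signals after quantile normalization, to within 5e-09, and were used. The methods of the study and the labels name different RNA isolation and labeling kits. Gene symbols came from the platform annotation (17073 elements with 1 symbol, 139 with several, 15666 unnamed here). Detection flags were not used here. The arrays give no counts, so their number limits the precision.

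Two-sided tests of all elements used lmFit and eBayes of limma 3.58.1 (R 4.3.3), blocking on the line, with Benjamini-Hochberg adjustment at 0.05. Scripts were tested on simulated data. Aza/tsa and untreated arrays pair because they come from one line: their deviations from the group means correlated at 0.361 to 0.585, against at most 0.181 between lines. Alternatives were median scaling, no normalization, only detected elements (signal over the array's median in 6 or more arrays of a group), a floor at each array's 25th percentile, no block, a mean-variance trend, an exact sign-flip test, a 1.5-fold rule, the mean over elements, and lines left out. Members, role groups, gene lists and motifs were chosen with earlier results of these data known. All members could be named, with full values for the largest called rise and fall of each group and for genes listed by function. The pairs of active subunits were added after seeing the data. The genes PSMB11, PSMC5, PSMD2, PSMD7, PSMD13 and PSMG4 had no element named here and were not analysed.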

Additional observations from a re-analysis of the deposited data

How the results depend on the processing

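The 14 lower and 3 higher proteasome genes were 23 and 0 with median scaling, 20 and 0 with no normalization, 16 and 5 with detected elements only or a variance trend, 16 and 4 with the floor, 17 and 5 with the exact sign-flip test, 4 and 0 with no replicate block, 7 and 0 without HLY-1, OciLy10 and SUDHL4, 9 and 3 without OciLy3 and OciLy10, and 11 to 16 and 2 to 3 with each line left out. Their median of −0.15 was −0.58 with median scaling and −0.49 with no normalization. At least 2-fold lower in 6 lines were 8 with median scaling and 3 with no normalization; 1.5-fold gave 7 lower and 2 higher, and with the floor 0 were 2-fold higher. The sign turned with median scaling for PSMA5 (−0.21), PSMB1 (−0.31), PSMB4 (−0.047), PSMB7 (−0.46), PSMC4 (−0.30), PSMD1 (−0.29), PSMD12 (−0.015), PSMD3 (−0.23), PSMD4 (−0.049), PSMD6 (−0.023), PSME1 (−0.19), PSME2 (−0.26) and POMP (−0.10), and with no normalization for PSMA5 (−0.12), PSMB1 (−0.22), PSMB7 (−0.37), PSMC4 (−0.21), PSMD1 (−0.20), PSMD3 (−0.14), PSME1 (−0.10), PSME2 (−0.17) and POMP (−0.013). With single lines left out, PSMB3 ranged from −0.16 to 0.013, PSMB7 from −0.095 to 0.072, PSMC2 from −0.053 to 0.0052, PSMD10 from −0.078 to 0.094 and PSME4 from −0.14 to 0.033, and PSMC2 was 0.0071 without HLY-1, OciLy10 and SUDHL4. The causes were not tested. The signal over background limits PSMD5 and PSMA8, which were near or below the array median in many lines.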

Other observations

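Beyond the proteasome, the COP9 signalosome, a complex built like the 19S lid that regulates cullin ubiquitin ligases, was measured in all 10 subunits. By limma 3 were higher and 4 were lower. Of all elements 11.2% were higher and 12.4% were lower, and of the elements of at least 14, 20.2% and 23.1%. All 10 subunits were above the array median on every array. Their median difference was −0.34, beside −0.03 over all elements and 0.03 over the elements of at least 14. COPS8 showed 15.01, 15.96 and 16.72 (lowest, median, highest) in aza/tsa cultures, against 13.61, 15.03 and 15.74 in untreated cultures, and was higher in 11 of 11 lines by a mean of 0.98 (SE 0.12, limma adjusted p = 6.17e-05). COPS6, the partner of the catalytic subunit, was lower in 11 of 11 lines by a mean of −0.69 (SE 0.13, limma adjusted p = 0.00136). The CCT chaperonin, a folding ring for actin and tubulin, had 8 of 8 subunits negative, 5 of them past the test (62.5%). Lower by limma were 12.4% of all elements and 23.1% of the elements of at least 14. The median of the CCT subunits was −0.46, beside −0.03 over all elements and 0.03 over the elements of at least 14. The share of all elements that were negative was not counted. CCT5 showed 16.22, 16.61 and 16.95 in aza/tsa cultures, against 17.36, 18.12 and 18.36 in untreated cultures; these groups did not overlap, and its mean difference was −1.37 (SE 0.14, limma adjusted p = 8.45e-06).

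Of 11 heat shock genes, 4 were higher and 3 were lower (36.4% and 27.3%, beside 11.2% and 12.4% of all elements). HSPA1A, an inducible HSP70 gene, averaged 15.28 ± 1.92 in aza/tsa cultures and 8.97 ± 1.38 in untreated cultures (SD, n = 11), where it was above the array median in 1 line, and was higher in 11 of 11 lines by a mean of 6.31 in the table (limma adjusted p = 1.3e-06). Its untreated median of 8.58 lay below the 25th percentile of each array (8.73), so the size is uncertain, and with values floored there the mean was 6.05. BAG3, its nucleotide exchange factor, was higher by 3.69 (limma adjusted p = 2.16e-05). The mitochondrial chaperonin genes HSPD1 and HSPE1 fell by 1.06 and 1.01 (limma adjusted p = 0.000705 and 8.65e-05). Of 7 genes that NFE2L2 is known to regulate, GCLC was higher by 0.64 and GCLM was lower by a mean of −0.50 (limma adjusted p = 0.0242 and 0.0262), and 5 did not pass. This is 14.3% in each direction, beside 11.2% higher and 12.4% lower over all elements. The GCLC call was lost with median scaling (0.40), with no normalization (0.49) and without OciLy3, K422, OciLy10 or BL41, and the GCLM call without OciLy3, Raji, SUDHL6, HLY-1 or BL41.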
